A study of Mus musculus with 6 samples.

Results

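The 8 genes described here form the centre of the integrated stress response: the 4 kinases that phosphorylate the translation factor eIF2α (Eif2ak1, Eif2ak2, Eif2ak3 and Eif2ak4), the gene of eIF2α itself (Eif2s1), the regulatory subunits of the phosphatase that reverses the mark (Ppp1r15a and Ppp1r15b) and the transcription factor gene Atf4. The choice rests on this role and used no measured value as a rule, but it was made with earlier results of these data known, and Eif2ak2 was among the stress genes that the study picked out from these samples. They were found by gene symbol among the 56941 genes listed in the count table. All 8 had enough reads to be tested, among 13299 genes that did. Spleen cells of B6 mice, labelled as naive CD8+ T cells, were activated on plate-bound antibodies to CD3 and CD28 with recombinant IL-2. Harvest followed after 3 days. Sphingosine-1-phosphate (S1P), a lipid mediator sensed by the receptor S1PR1 and its relatives, was given at 5 µM after 24 h of activation to 3 samples, and 3 samples received vehicle. The labels call the samples of each treatment biological replicates 1 to 3 without saying whether they came from separate mice, so p-values measure the spread between these samples, which may be partly technical. The methods of the study name either purified naive T cells or total splenocytes as the starting cells.

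Each eIF2α kinase answers to a different stress. HRI, encoded by Eif2ak1, responds to heme shortage and mitochondrial stress, PKR (Eif2ak2) to double-stranded RNA, PERK (Eif2ak3) to unfolded protein in the endoplasmic reticulum, and GCN2 (Eif2ak4) to amino acid shortage. Phosphorylated eIF2α blocks its exchange factor eIF2B, which slows translation of most mRNAs while that of Atf4 mRNA rises through short upstream reading frames. ATF4 then switches on genes of amino acid supply and of feedback, among them Ppp1r15a, whose product GADD34 brings protein phosphatase 1 back to eIF2α. These steps run largely through phosphorylation and translation, and the data here hold transcript levels only.

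Transcripts of 2 of the 8 genes rose after S1P, those of the kinase PKR and of the inducible phosphatase subunit GADD34, each to slightly above 2 times the vehicle level. The other 6 did not pass both thresholds, which asked for an adjusted p no higher than 0.05 together with an absolute log2 fold change of 0.3 or more (edgeR's quasi-likelihood test, p-values adjusted by Benjamini-Hochberg over the 13299 genes). By the same rule 12.7% of all tested genes were higher, 10.4% were lower and 23.1% were called in either direction. Without the fold-change threshold, 4 of the 8 genes passed the adjusted p, against 28.5% of all genes, since small differences of Eif2s1 and Atf4 were added. For 5 of the 8 genes the normalized levels of S1P and vehicle samples were fully separate, against 45.6% of all genes. PERK, the kinase of the endoplasmic reticulum, was not among the transcripts that rose.

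**Figure D1:**
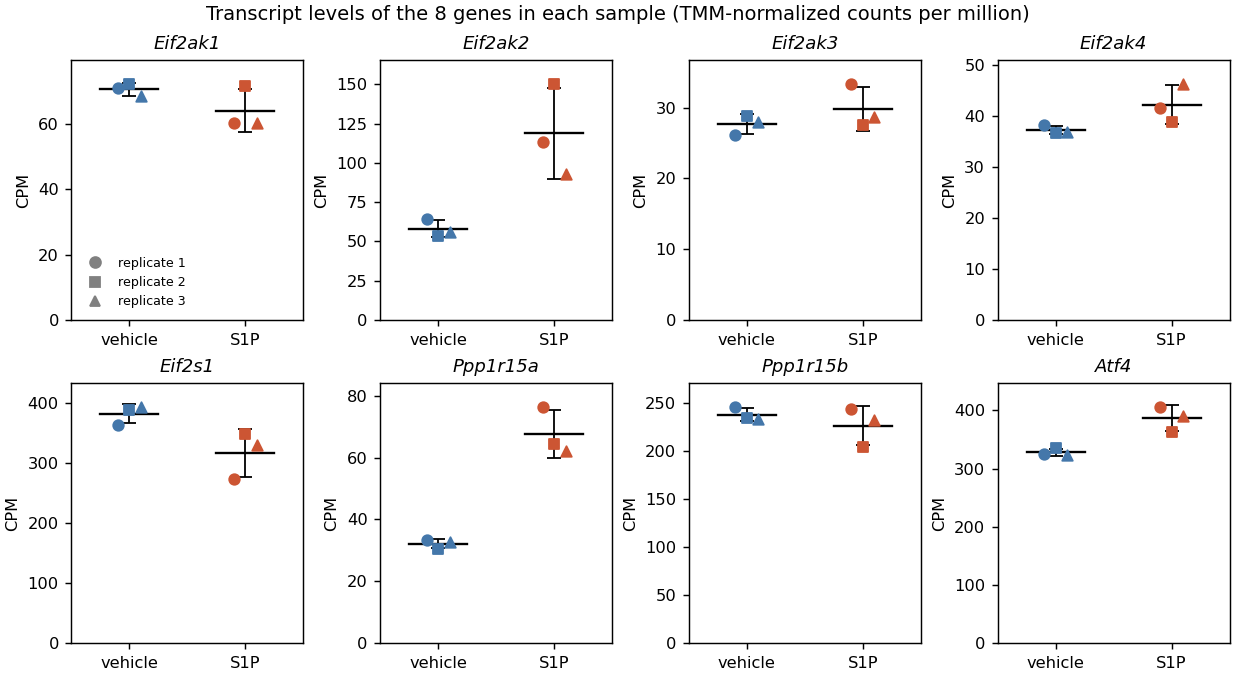
Transcript level of each of the 8 genes in CPM after TMM scaling (vertical axis from 0) in 3 vehicle (blue) and 3 S1P (orange) samples. Symbols give the replicate number, horizontal lines the group mean and bars the SD; the S1P samples of Eif2ak2 (93.2 to 150.4 CPM) and Ppp1r15a (62.0 to 76.4 CPM) lie clear of vehicle, while those of Eif2ak1, Eif2ak3 and Ppp1r15b overlap it.

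Total counts ranged from 12048880 to 17384084 per sample, and the members had between 313 and 7220 counts in each. Expression is given as CPM, counts scaled to library size, after TMM scaling between libraries. S1P replicate 2 stood apart from the other libraries, with 7.80% of its counts on mitochondrial genes against 4.10% to 4.93% in the other 5, so results that turn on it are also given without it. Of the 6 markers listed for CD8 T cells all were detected, with a summed level of 1024 to 1165 CPM in vehicle and 942 to 1081 CPM in S1P samples. Cd3d, Cd3e, Cd3g and Cd2 in this list are also expressed by CD4 T cells, so the sum is not a level of CD8 T cells alone. Of the 6 markers, Cd8a (from a mean of 222 to 139 CPM, log2 fold change -0.67, adjusted p = 0.000243) and Cd8b1 (-0.55, adjusted p = 0.00767) fell, Cd2 rose (0.33, adjusted p = 0.0131) and 3 did not pass. The call of Cd2 rested on single libraries: no CD8 T cell marker was called higher without S1P replicate 2 or without vehicle replicate 1. Transcripts of other lymphocytes were present too: the 4 CD4 T cell markers summed to 229 to 272 CPM in vehicle and 252 to 319 CPM in S1P samples, and the 5 B cell markers to 510 to 635 and 522 to 606 CPM. Of the CD4 T cell markers, Zbtb7b (log2 fold change 0.37, adjusted p = 0.00886) and Cd40lg (0.50, adjusted p = 0.0134) rose and 2 did not pass, among them Cd4, at a mean of 203 and 218 CPM. Cd4 was near the level of Cd8a in vehicle samples and above it in each S1P sample. With vehicle replicate 2 or S1P replicate 3 left out, 1 CD4 T cell marker was called higher. Of the B cell markers, Ms4a1 fell (-0.39, adjusted p = 0.00889) and 4 did not pass. No B cell marker was called lower without vehicle replicate 1 or without vehicle replicate 3. Without S1P replicate 1, 1 was called higher and 2 lower. Myeloid markers summed to 0.314 to 1.23 CPM over all samples, NK cell markers to 0.785 to 2.46 CPM and erythroid markers to 0.0733 to 0.785 CPM. In bulk samples such as these, fewer cells of a type and less RNA per cell cannot be told apart, and the part of the other lymphocytes in the results below was not tested.

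Among the kinases, Eif2ak2 (ENSMUSG00000024079, GRCm39 chr17:79159972-79190012, minus strand) was the transcript that rose. PKR senses double-stranded RNA and its gene is a textbook interferon-stimulated gene. An element of the kind that interferon-activated factors recognise was looked for around its start, because the transcript moved with interferon-stimulated genes, as described further on. The stretch below, from bases 20 to 48 of the canonical transcript at chr17:79189965-79189993 and read on the minus strand, holds it, with the first match to the interferon-stimulated response element core GAAANNGAA in capitals.

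Eif2ak2: agtccgccggGAAAACGAAacagaagaga

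The match in capitals covers bases 30 to 38 of the transcript, and a second match overlaps its last 3 bases and covers bases 36 to 44. The core was searched on both strands from 250 bases before to the first 50 bases of the transcript, and 8.78% of 21770 protein-coding promoters hold it in the same window, as do 3 of the 8 genes here, Eif2ak2, Ppp1r15a and Eif2s1. The matches of Eif2ak2 and Eif2s1 lie inside the transcript, in bases that were added to the window after a first look. Among the bases before the start, only Ppp1r15a has a match. A match of these letters is a description and not a binding site.

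Eif2ak2 stood at 64.1, 53.6 and 56.3 CPM in vehicle replicates 1 to 3 and at 113, 150.4 and 93.2 CPM in S1P replicates 1 to 3. Every S1P sample was above every vehicle sample, and S1P replicate 2 was the highest. The mean went from 58.0 ± 5.46 to 119 ± 29.0 CPM (SD, n = 3 each), a 2.04-fold rise with a 95% interval of 1.65 to 2.54, and a log2 fold change of 1.03 ± 0.14 (SE, adjusted p = 0.000443). Without S1P replicate 2, the library with the high mitochondrial share, the log2 fold change was 0.83 (adjusted p = 1.92e-05).

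The other kinases did not pass. Eif2ak3, the gene of PERK (ENSMUSG00000031668, chr6:70821461-70882235, plus strand), stood at 26.1, 28.8 and 28.0 CPM in vehicle and at 33.4, 27.5 and 28.7 CPM in S1P samples. The groups overlapped, and the log2 fold change was 0.12 ± 0.10 (SE, 95% interval -0.09 to 0.33, adjusted p = 0.383), an interval that leaves out changes of the size seen for Eif2ak2. Eif2ak4, the gene of GCN2 (ENSMUSG00000005102, chr2:118218950-118305868, plus strand), had 38.2, 36.6 and 36.8 CPM in vehicle and 41.5, 38.7 and 46.2 CPM in S1P samples. All its S1P values were above its vehicle values, by little: the log2 fold change was 0.18 ± 0.08 (95% interval -0.0027 to 0.36, adjusted p = 0.129). Without S1P replicate 2 it was 0.23 and passed the adjusted p (0.0318) but not the fold-change threshold.

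Eif2ak1, the gene of HRI (ENSMUSG00000029613, chr5:143803530-143843661, plus strand), had 71.1, 72.3 and 68.4 CPM in vehicle and 60.3, 71.7 and 60.4 CPM in S1P samples. S1P replicate 2 lay within the vehicle range and the other S1P samples below it, with a log2 fold change of -0.14 ± 0.08 (95% interval -0.32 to 0.036, adjusted p = 0.215) that became -0.23 without that replicate (adjusted p = 0.0149), still short of the fold-change threshold. Of the exon bases of Eif2ak1, 28.6% lie under genes of the opposite strand, mainly Aimp2, so reads of both could be mixed unless the counting used strand, which is not given in the sources used here. Aimp2 did not pass either, with a log2 fold change of -0.03 (adjusted p = 0.854).

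**Figure D2:**
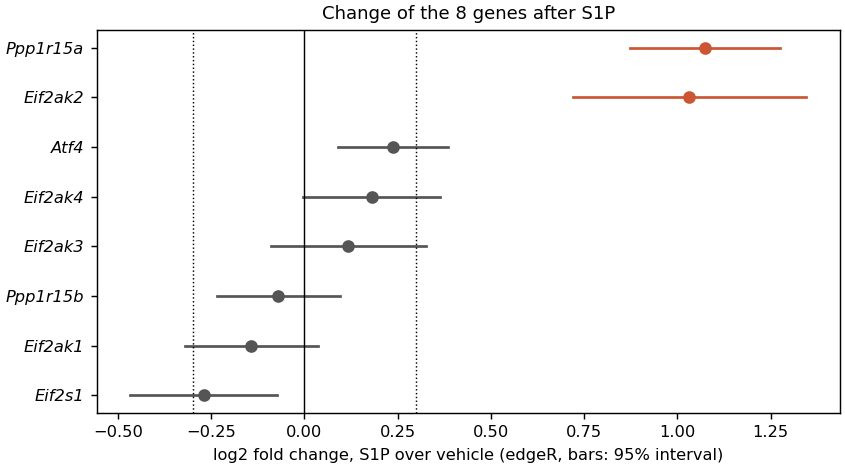
Log2 fold change (horizontal axis) of the 8 genes from edgeR with 95% intervals, the 2 genes past both thresholds in orange. Dotted lines mark -0.3 and 0.3; the intervals of Ppp1r15a (0.87 to 1.27) and Eif2ak2 (0.72 to 1.34) lie wholly beyond 0.3, and those of Eif2s1 (-0.47 to -0.07) and Atf4 (0.089 to 0.39) exclude 0 and cross a dotted line.

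To compare the kinases with each other, counts were divided by the length of all annotated exons of each gene and expressed as a share of the sum of the 4. Eif2ak2 made up 46.2%, 41.0% and 43.1% of the kinase transcripts in vehicle and 59.7%, 66.3% and 55.7% in S1P samples. The groups did not overlap, and the share was 17.2 percentage points higher after S1P. Eif2ak1 went the other way, from a mean share of 28.6% ± 1.14 to 17.9% ± 1.37 (SD, n = 3), and Eif2ak3 from 17.8% ± 1.47 to 13.4% ± 2.61, again without overlap. Eif2ak4 had 10.2% ± 0.128 and 8.09% ± 1.93, with overlap. The last 2 shifts were smaller without S1P replicate 2, at -2.90 in place of -4.40 percentage points for Eif2ak3 (exact permutation p = 0.2) and -1.13 in place of -2.07 for Eif2ak4, and per coding length that of Eif2ak3 was -2.11. As shares of a whole, the lower shares of the other kinases go with the larger amount of Eif2ak2. Exact two-sided permutation tests gave p = 0.1 for the first 3 kinases, the smallest p that 3 samples against 3 allow, and p = 0.2 for Eif2ak4 (0.133 and 0.2 after Benjamini-Hochberg adjustment over the 4), so no share could reach 0.05.

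The summed level of the 4 kinases per kilobase of exon was 25.5, 24.1 and 24.0 CPM in vehicle and 34.9, 41.7 and 30.8 CPM in S1P samples, 11.2 CPM per kilobase higher on average and without overlap (exact permutation test, two-sided, p = 0.1). Which kinase led in vehicle depended on the length used. Per length of the canonical transcript, an alternative chosen after seeing the data, Eif2ak1 led with 38.2% against 31.3% for Eif2ak2, and after S1P Eif2ak2 led with 47.9% against 26.2%. Per coding length Eif2ak2 led in both groups, with 43.0% in vehicle and 61.1% after S1P, against 40.1% and 25.6% for Eif2ak1. The direction of each kinase's shift was the same with all 3 lengths.

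**Figure D3:**
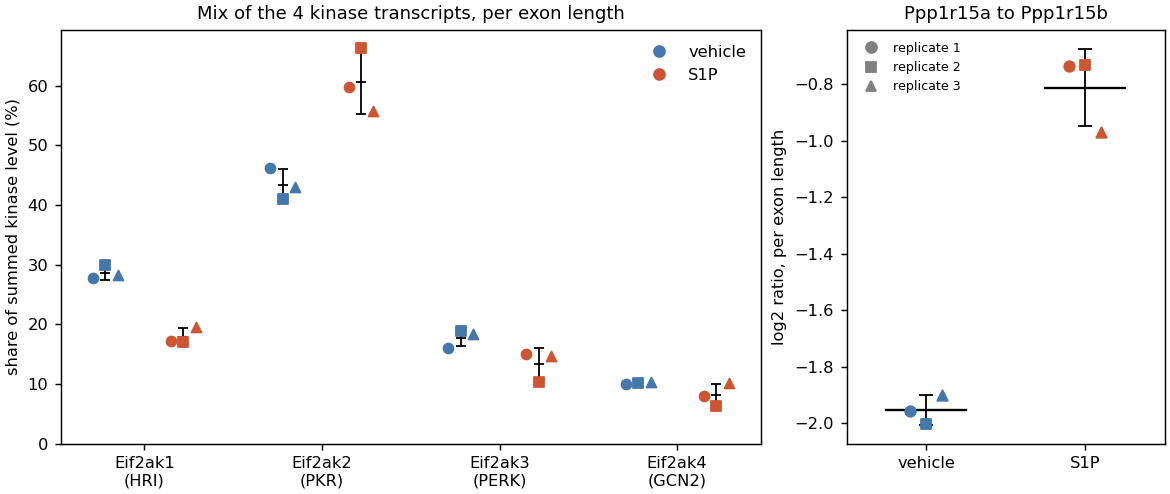
Left, share of each kinase in the summed transcript level of the 4 (percent, per exon length) in 3 vehicle (blue) and 3 S1P (orange) samples. Right, log2 ratio of Ppp1r15a to Ppp1r15b per exon length; symbols give the replicate and bars the mean and SD. Eif2ak2 holds 41.0% to 46.2% in vehicle and 55.7% to 66.3% in S1P samples, and the ratio moves from near -2 to between -0.97 and -0.73.

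The substrate of these kinases, eIF2α, comes from Eif2s1 (ENSMUSG00000021116, chr12:78907681-78935018, plus strand). Its level was 363, 388 and 393 CPM in vehicle and 272, 348 and 329 CPM in S1P samples. Every S1P sample was below every vehicle sample, S1P replicate 1 by the most. The mean was 382 ± 16.0 CPM in vehicle and 317 ± 39.4 CPM in S1P samples (SD, n = 3), with a log2 fold change of -0.27 ± 0.09 (95% interval -0.47 to -0.07, adjusted p = 0.0417), which passed the adjusted p but not the fold-change threshold. Without S1P replicate 2 it passed both (-0.34, adjusted p = 0.00377), and without S1P replicate 1 neither (-0.17, adjusted p = 0.0926). The adjusted p was above 0.05 in 6 of the 14 refits, which were upper-quartile scaling (0.0558) and 5 of the 6 fits without 1 sample, where it was 0.0633 to 0.138. Of its exon bases 31.1% lie under genes of the opposite strand, mainly Atp6v1d, whose own log2 fold change was 0.24 (adjusted p = 0.0454).

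Among the partners of eIF2α, 3 of the 7 tested genes of eIF2 and eIF2B fell and 4 did not pass, and the median log2 fold change of the 7 was -0.20, where that of all tested genes was 0.01. All 3 that fell encode subunits of eIF2B, the exchange factor that phosphorylated eIF2α blocks. Eif2b4 went from 47.4, 45.0 and 51.8 CPM in vehicle to 29.4, 31.8 and 35.2 CPM in S1P samples (log2 fold change -0.58, adjusted p = 0.000857). Eif2b1 went from 71.3, 74.0 and 73.6 CPM to 48.7, 47.7 and 54.4 CPM (-0.54, adjusted p = 0.000426), and Eif2b3 showed a smaller fall (-0.31, adjusted p = 0.0121). With vehicle replicate 3 or S1P replicate 1 left out, 2 genes of the list were called lower. Eif2s2, the gene of the β subunit, did not pass (0.18, adjusted p = 0.0933) and was looked at after the values were seen. The log2 ratio of Eif2s1 to Eif2s2 counts, which does not depend on library scaling, was -0.44, -0.47 and -0.39 in vehicle and -0.98, -0.85 and -0.85 in S1P samples. Eif2s3x, the other tested partner within eIF2, did not pass (-0.13, adjusted p = 0.145) and lay on the same side as Eif2s1. The size of the ratio's shift therefore rests on the choice of Eif2s2.

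Ppp1r15a (ENSMUSG00000040435, chr7:45172340-45175692, minus strand) encodes GADD34, the stress-induced subunit that directs protein phosphatase 1 to eIF2α. Because its transcript was, with that of Eif2ak2, called higher, the 250 bases before its start are shown, from chr7:45175693-45175942 on the minus strand and ending at the base before the transcript. Capitals mark a match to the interferon-stimulated response element core, 220 to 212 bases before the start, and then the cyclic AMP response element TGACGTCA, 12 to 5 bases before it.

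Ppp1r15a: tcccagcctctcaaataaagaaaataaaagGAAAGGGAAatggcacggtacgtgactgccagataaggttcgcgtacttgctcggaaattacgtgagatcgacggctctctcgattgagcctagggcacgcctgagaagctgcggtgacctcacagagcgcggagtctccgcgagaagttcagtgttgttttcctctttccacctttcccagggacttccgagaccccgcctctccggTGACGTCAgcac

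The cyclic AMP response element, which reads the same on both strands and is a textbook site of the CREB and ATF families, is in 2.44% of the 21770 promoter windows, and Ppp1r15a is the 1 member of the 8 that has it. Ppp1r15b (ENSMUSG00000046062, chr1:133058881-133067539, plus strand) encodes CReP, the subunit that is made without stress. It has neither element, but it is the 1 member with a match to TGATGNAA, the composite element of C/EBP and ATF proteins found in 3.85% of promoters. The match lies 37 to 30 bases before the start, in capitals in the stretch below at chr1:133058834-133058861, and is shown since it belongs to the subunit whose transcript did not pass the test.

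Ppp1r15b: taggtccggcTGATGCAActcgccgcgt

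Ppp1r15a had 33.1, 30.5 and 32.7 CPM in vehicle and 76.4, 64.2 and 62.0 CPM in S1P samples. The vehicle samples lay close together and all S1P samples were far above them, with replicate 1 the highest. The mean went from 32.1 ± 1.42 to 67.6 ± 7.75 CPM (SD, n = 3), a 2.11-fold rise with a 95% interval of 1.83 to 2.42, and a log2 fold change of 1.07 ± 0.09 (SE, adjusted p = 3.05e-05). Opposite-strand genes cover 0.409% of its exon bases, and without S1P replicate 2 the log2 fold change was 1.11.

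Ppp1r15b had 246, 234 and 233 CPM in vehicle and 243, 204 and 232 CPM in S1P samples. The groups overlapped, with a log2 fold change of -0.07 ± 0.08 (95% interval -0.24 to 0.096, adjusted p = 0.527). Without S1P replicate 2, the lowest of the 6 samples, it was 0.0017. Per kilobase of exon the constitutive subunit stayed the more abundant of the pair: the log2 ratio of Ppp1r15a to Ppp1r15b was -1.96, -2.00 and -1.90 in vehicle and -0.74, -0.73 and -0.97 in S1P samples. The ratio was higher by 1.14 after S1P without overlap (two-sided exact permutation test, p = 0.1, which 3 samples a group cannot go below), and this difference does not depend on the length or the library scaling used. Of the 5 genes of catalytic subunits of protein phosphatase 1 and its actin partners, 4 did not pass and Ppp1ca fell, from 298, 293 and 300.1 CPM to 244, 204 and 257 CPM (log2 fold change -0.34, adjusted p = 0.0117). No gene of this list was called lower without S1P replicate 2 or without vehicle replicate 3, and without S1P replicate 1 the list had 2 calls.

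Atf4 (ENSMUSG00000042406, chr15:80139372-80141745, plus strand), with no exon base under another gene, was the most abundant of the 8 per kilobase of exon. It had 326, 335 and 323 CPM in vehicle and 406, 363 and 391 CPM in S1P samples. All S1P samples were above all vehicle samples, by a small margin. The mean was 328 ± 6.37 CPM in vehicle and 387 ± 21.9 CPM in S1P samples (SD, n = 3), with a log2 fold change of 0.24 ± 0.07 (95% interval 0.089 to 0.39, adjusted p = 0.0220), which passed the adjusted p but not the fold-change threshold. The adjusted p was above 0.05 in 7 of 14 refits with another tool, scaling, filter or set of samples, among them 5 of the 6 that left out 1 sample, where it was 0.0501 to 0.0995; without S1P replicate 2 it was 0.00151.

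Per kilobase of exon, the order of mean levels in vehicle was Atf4 with 138 CPM, Eif2s1 with 50.8, Ppp1r15b with 42.3, Ppp1r15a with 10.9, Eif2ak2 with 10.7, Eif2ak1 with 7.03, Eif2ak3 with 4.35 and Eif2ak4 with 2.49. After S1P the order was the same, with 163 CPM for Atf4, 42.2 for Eif2s1, 40.3 for Ppp1r15b, 23.0 for Ppp1r15a, 21.9 for Eif2ak2, 6.38 for Eif2ak1, 4.70 for Eif2ak3 and 2.82 for Eif2ak4. Ppp1r15a and Eif2ak2 overlapped in both groups and Eif2s1 and Ppp1r15b in S1P samples, so the order within these pairs is not settled by the spread. The leading 3 genes kept their places per coding length and per canonical transcript, while places 4 to 8 moved with the length.

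**Figure D4:**
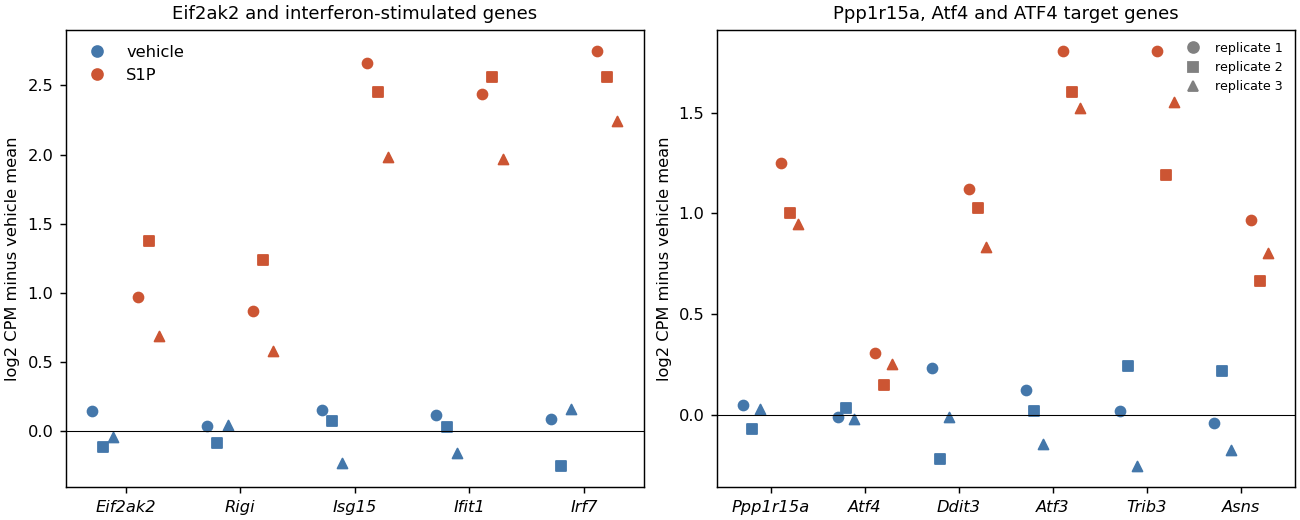
Log2 CPM minus the vehicle mean (vertical axis) for Eif2ak2 with 4 interferon-stimulated genes (left) and for Ppp1r15a and Atf4 with 4 genes listed as ATF4 targets (right), in 3 vehicle (blue) and 3 S1P (orange) samples, with symbols for the replicate. Eif2ak2 (0.97, 1.38 and 0.69 in S1P replicates 1 to 3) is highest in replicate 2, and Ppp1r15a (1.25, 1.00 and 0.95) and Atf4 (0.31, 0.15 and 0.25) in replicate 1.

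Genes with profiles most like those of the genes that rose were found by the Euclidean distance between log2 CPM profiles over the 6 samples, each centred on its mean, among 11118 genes of sufficient level. Nearest to Eif2ak2 were Gm20559 at 0.14, 9930111J21Rik2 at 0.20 and Rigi at 0.20, against a median distance of 1.38. Rigi encodes RIG-I, another sensor of double-stranded RNA, and had 22.9, 21.0 and 23.0 CPM in vehicle and 40.7, 52.5 and 33.4 CPM in S1P samples, also highest in S1P replicate 2. Nearest to Ppp1r15a were Niban1 at 0.09, Crem at 0.18 and Ebi3 at 0.21, against a median of 1.37. Niban1, a stress-induced gene, had 43.8, 40.0 and 43.8 CPM in vehicle and 101, 91.1 and 84.6 CPM in S1P samples. Crem encodes a regulator that binds cyclic AMP response elements, and its log2 fold change was 1.15 (adjusted p = 1.10e-05).

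Of the interferon-stimulated genes, to which Eif2ak2 belongs by function, 26 of 30 rose and 4 did not pass, with a median log2 fold change of 1.29 against 0.01 for all tested genes. Irf7, the transcription factor that amplifies the interferon response, went from 2.88, 2.27 and 3.02 CPM in vehicle to 18.2, 16.0 and 12.8 CPM in S1P samples (log2 fold change 2.52, adjusted p = 1.11e-05). Isg15, a ubiquitin-like protein, went from 2.02, 1.91 and 1.54 CPM to 11.5, 9.92 and 7.14 CPM (2.39, adjusted p = 4.06e-05). Ifit1, which binds foreign RNA, went from 3.57, 3.37 and 2.96 CPM to 17.8, 19.4 and 12.9 CPM (2.33, adjusted p = 1.62e-05). These 3 were low in both groups beside Eif2ak2, in CPM without length.

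Among these genes the largest fitted changes, of Rsad2 (from at most 0.576 CPM, and 0 in vehicle replicate 3, to 3.22 to 6.49 CPM) and Ifi44 (from 0.321 to 0.576 CPM to between 2.36 and 6.32 CPM), started from very few reads. The median difference of the 30 genes from the vehicle mean was 1.21, 1.37 and 0.99 on the log2 scale in S1P replicates 1 to 3, highest in replicate 2 and lowest in replicate 3, as for Eif2ak2. Without S1P replicate 2, 25 of the 30 were called higher.

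Around ATF4, 20 of 37 target genes rose and 17 did not pass, with a median log2 fold change of 0.33, and 8 of 14 dimer partners and feedback regulators rose, with a median of 0.51. The lists share 4 genes, and Atf3, Ddit3, Trib3, Chac1 and Cebpb were among the genes the study itself picked out from these samples, so the lists are not independent evidence of their direction. Atf3, a stress-induced ATF factor, went from 29.3, 27.3 and 24.4 CPM in vehicle to 94.3, 81.7 and 77.5 CPM in S1P samples (log2 fold change 1.65, adjusted p = 6.42e-06). Trib3, a pseudokinase that restrains ATF4, went from 11.2, 13.1 and 9.26 CPM to 38.7, 25.3 and 32.5 CPM (1.54, adjusted p = 8.13e-05). Ddit3, the gene of CHOP, went from 12.0, 8.80 and 10.2 CPM to 22.3, 20.9 and 18.3 CPM (0.98, adjusted p = 0.000337).

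Jun, an AP-1 subunit, rose by a log2 fold change of 1.27 (adjusted p = 4.04e-05). Among enzymes and transporters, Asns, which makes asparagine, went from 88.4, 105.6 and 80.4 CPM to 178, 144 and 159 CPM (0.81, adjusted p = 0.000273). Slc7a11, the cystine importer, went from 3.17, 3.08 and 2.38 CPM to 10.0, 8.60 and 8.32 CPM (1.65, adjusted p = 7.90e-05), and Vldlr, a lipoprotein receptor, from 4.79, 5.94 and 1.48 CPM to 48.7, 36.1 and 33.0 CPM (3.29, adjusted p = 3.62e-05). Over the 37 targets the median difference from the vehicle mean was 0.43, 0.30 and 0.36 on the log2 scale in S1P replicates 1 to 3. Replicate 1 was highest and replicate 2 lowest, the same order as for Atf4, while Ppp1r15a was highest in replicate 1 and lowest in replicate 3. With vehicle replicate 3 left out, 15 of the 37 were called higher.

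**Figure D5:**
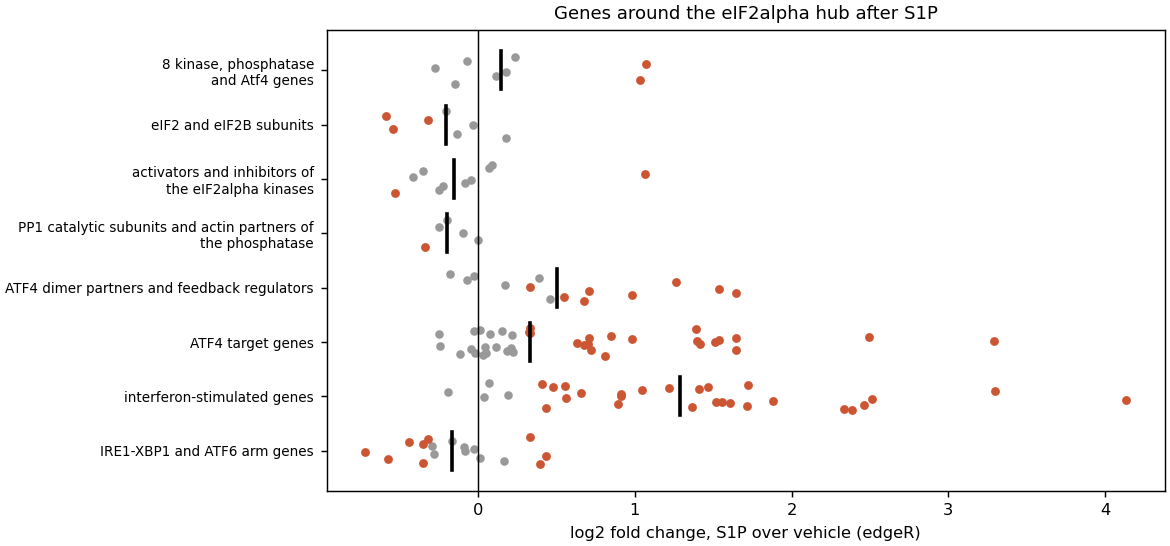
Log2 fold change (horizontal axis) of the tested genes of each list, with 1 point a gene, orange past both thresholds, and black bars at the list medians. The interferon-stimulated genes (median 1.29), the ATF4 partners (0.51) and the ATF4 targets (0.33) lie mainly to the right of 0, and the medians of the eIF2 and eIF2B subunits (-0.20), the kinase regulators (-0.15), the phosphatase partners (-0.20) and the IRE1-XBP1 and ATF6 arms (-0.16) lie to the left.

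Of 10 genes that activate or inhibit the kinases, 1 rose, 1 fell and 8 did not pass, with a median log2 fold change of -0.15. At 10% each way, these shares were near those of all tested genes, 12.7% higher and 10.4% lower. Prkra, the gene of the PKR activator PACT, was low and went from 2.13, 1.76 and 1.41 CPM in vehicle to 4.00, 3.86 and 3.30 CPM in S1P samples (log2 fold change 1.07, adjusted p = 0.00477). Gcn1, which GCN2 needs to sense stalled ribosomes, fell from 200.4, 182 and 185 CPM to 151, 108 and 134 CPM (-0.53, adjusted p = 0.00354). The number called lower was 2 without S1P replicate 1, without S1P replicate 3, with DESeq2 and with limma-voom, and 3 with no filter on low counts. Hspa5, the chaperone BiP that holds PERK inactive, did not pass, with 1080, 1096 and 1088 CPM in vehicle and 1042, 1030.2 and 1013 CPM in S1P samples (-0.08, adjusted p = 0.393).

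The other arms of the unfolded protein response, IRE1-XBP1 and ATF6, are set off in the endoplasmic reticulum beside PERK. Of their 17 genes 6 fell, 3 rose and 8 did not pass, with a median log2 fold change of -0.16. Sdf2l1, a chaperone cofactor, fell from 53.4, 56.9 and 49.1 CPM to 34.7, 27.0 and 34.6 CPM (log2 fold change -0.72, adjusted p = 0.000542). Atf6b fell by 0.57 on the log2 scale (adjusted p = 0.00116) and the chaperone gene Hyou1 by 0.44 (adjusted p = 0.00109). The genes that rose were Ern1, the gene of IRE1 (0.40, adjusted p = 0.0469), Dnajb9 (0.43, adjusted p = 0.0287) and Herpud1 (0.34, adjusted p = 0.0143). Herpud1 is also in the list of ATF4 targets. The number called higher depended on single libraries: without vehicle replicate 1, 2 or 3 it was 1, 0 and 0, and without S1P replicate 1, 2 or 3 it was 0, 2 and 1, while 6 or 7 were called lower each time.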

How the data were processed

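RNA of 6 mouse samples labelled as CD8+ T cells was analysed, 3 treated with S1P and 3 with vehicle. Libraries were strand-specific and made from polyadenylated RNA. The authors trimmed reads with Trim Galore, aligned them to GRCm39 with STAR and assigned them to genes with featureCounts (tools and build as in the submitters' processing notes), and deposited the raw counts. The annotation release and the strand setting are not given in the sources used here. Depth was 12048880 to 17384084 counts per sample. The study's own test was DESeq2.

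Symbols and lengths came from GENCODE vM39, which holds 56323 of the 56941 identifiers. Counts were filtered with filterByExpr, scaled with TMM and compared by the quasi-likelihood test of edgeR 4.0.16 (with R 4.3.3 and limma 3.58.1), in a model of treatment alone. Calls needed an adjusted p (Benjamini-Hochberg) no higher than 0.05 and an absolute log2 fold change of 0.3 or more, as in the study. Shares and ratios were compared by exact permutation tests, two-sided. The script was tested on simulated data. Promoter windows, from 250 bases before to 50 bases after the canonical start, were read from GRCm39; this window replaced a first one of upstream bases only, after a first look. Alternatives were DESeq2 1.42.0, limma-voom, other scaling factors, other filters, other thresholds, the replicate block, other lengths and each sample left out.

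The members, lists and thresholds were chosen with earlier results of these data known. Besides the members, the text names the 3 called genes of each list with the largest change and a mean log2 CPM of at least 1, genes set by name (Ddit3, Trib3, Asns, Atf3, Hspa5, Isg15 and Ifit1; another is not reported here), and the 3 genes nearest in profile to each member that rose. Chi-square statistics of replicate pairs showed no duplicated library.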

Additional observations from a re-analysis of the deposited data

How the results depend on the processing

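Eif2ak2 and Ppp1r15a were called higher in all 14 refits, with log2 fold changes of 0.83 to 1.17 and 0.97 to 1.13. The number of members called lower was 1 in place of 0, by Eif2s1, with total counts as the only scaling (-0.30, adjusted p = 0.0151), with no filter on low counts (-0.30, adjusted p = 0.00191), without S1P replicate 2, and with no fold-change threshold (-0.27), where Atf4 was added as higher (0.24) because the fold-change threshold alone had kept both out. The cause of the other changes was not tested. Over single samples left out, Eif2s1 ranged from -0.34 to -0.17, and Ppp1r15b from -0.13 to 0.0017, its sign turning without S1P replicate 2. Over all genes, a stricter log2 fold-change threshold of 1 gave 383 calls higher and 82 lower, and single samples left out gave 1158 to 1736 higher and 961 to 1492 lower genes. With no filter the median log2 fold change of all genes was 0.16. With the replicate block 1697 genes were higher and 1423 lower, the log2 fold changes of Eif2ak2 and Ppp1r15a were 1.01 and 1.07, no member's call changed, and 3 of the 10 kinase regulators were called lower in place of 1. Deviations of same-numbered samples correlated at 0.12, -0.0060 and 0.048, so the numbers were not taken as pairs, and not every sample correlated best with its own number. With 3 samples a group, exact tests of shares and ratios cannot go below p = 0.1 (0.25 with pairs), and for Eif2ak3, Eif2ak4, Eif2ak1 and Ppp1r15b differences up to the ends of their intervals could not be told from 0.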
